A study of Mus musculus with 6 samples.

Results

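The genes described here encode the proteins of the mitochondrial ribosome, the machine that reads the few messenger RNAs made inside mitochondria. They were taken by name, as every gene whose array annotation symbol starts with Mrpl or Mrps followed by a digit and that has a probe set with no other gene symbol. The rule gave 76 genes of the 18193 that could be tested, 47 of them Mrpl (named for the large subunit) and 29 Mrps (named for the small subunit). Each gene was read by its brightest probe set (the group of short probes that measures 1 transcript region). Mrpl30 and Mrpl53 were read only by probe sets that also carry another gene's symbol and were not used here.

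Total RNA from the apex of the ventricles of transgenic mouse hearts was hybridised to Affymetrix Mouse Genome 430 2.0 arrays. The transgene, PR-M, is the human mitochondrial progesterone receptor. The labels call 3 of the 6 samples expressing and the remaining 3 non-expressing, and both groups had been given 2.5 mg progesterone in oil under the skin for 19 to 21 days. The labels used here do not give the promoter of the transgene, how its expression was established, or the strain, age and sex of the mice. Whether each sample was its own animal is also not stated, so a p-value reflects only sample-to-sample spread, which may be technical. The comparison asks whether these genes were at another level where the mitochondrial receptor was expressed, with the hormone present in both groups.

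The mitochondrial ribosome has a large subunit, which joins amino acids and releases the growing chain through an exit tunnel, and a small subunit, which holds the messenger RNA and decodes it. Its proteins are made in the cytosol from nuclear genes and imported. Some descend from bacterial ribosomal proteins and others are found only in mitochondria. In heart muscle the products of mitochondrial translation are core subunits of the respiratory chain complexes and of ATP synthase, so this ribosome serves the main energy supply of the tissue. The name and the structure differ for a few members. Mrps18a and Mrps30 encode proteins that sit in the large subunit of mammalian mitochondrial ribosomes, and Mrps36 encodes a protein of the oxoglutarate dehydrogenase complex that was once counted as ribosomal.

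The proximal promoters of the genes were described by features such as letters that transcription factors bind. RefSeq (build GRCm38.p6) gave 73 promoters, each from 250 bases before to 50 after a start site, for 67 of the 76 genes. The letters CCGGAAG, the core bound by ETS factors such as the mitochondrial gene regulator GABP, were found on either strand in 25 promoters (34.2%), against 8.86% of all 32851 promoters in the table. The letters GCGCATGCG of the NRF1 site were in 7 (9.59%, against 1.75% of all), and the letters AAGATGGC of the YY1 site in 12 (16.4%, against 2.75% of all). At least 1 of the ETS, NRF1 and YY1 motifs was in 37 promoters (50.7%, against 12.5% of all), and the rest held none of them. For CCAAT, the NFY box, the shares were 39.7% and 37.4%. CCGGAAG and AAGATGGC share the letters AAG and can overlap, and a match is a description of letters and not of binding. The GC content had a median of 58.7% against 52.7% over all promoters, and the motif shares were not matched for it. TATAAA stood just upstream of the start in 0 of the 73, against 2.32% of all promoters.

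The promoters of 5 genes show the features. They belong to the large subunit gene with the lowest p (Mrpl57), to a gene whose 4 probe sets point the same way (Mrpl52), to a pair that carry 2 motifs each (Mrpl22 and Mrps18a), and to a gene that starts back to back with another member (Mrps11). Each is printed 5′ to 3′ on the gene's own strand from 200 bases before to 20 after the start site, with the ETS, NRF1 and YY1 letters in capitals, read on either strand. All 5 lie on the plus strand of GRCm38.p6, Mrpl57 at chr14:57826039-57826258, Mrpl52 at chr14:54426709-54426928, Mrpl22 at chr11:58171464-58171683, Mrps18a at chr17:46110804-46111023 and Mrps11 at chr7:78782931-78783150.
Mrpl57: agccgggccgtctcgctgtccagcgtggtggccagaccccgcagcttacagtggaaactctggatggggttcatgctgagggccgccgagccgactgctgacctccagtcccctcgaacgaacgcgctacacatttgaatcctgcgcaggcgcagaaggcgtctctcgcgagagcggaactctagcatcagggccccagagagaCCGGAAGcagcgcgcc
Mrpl52: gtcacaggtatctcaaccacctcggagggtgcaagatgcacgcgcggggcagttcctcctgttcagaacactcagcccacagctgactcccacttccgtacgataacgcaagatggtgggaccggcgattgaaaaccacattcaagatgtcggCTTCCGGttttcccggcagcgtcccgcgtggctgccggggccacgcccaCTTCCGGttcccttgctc
Mrpl22: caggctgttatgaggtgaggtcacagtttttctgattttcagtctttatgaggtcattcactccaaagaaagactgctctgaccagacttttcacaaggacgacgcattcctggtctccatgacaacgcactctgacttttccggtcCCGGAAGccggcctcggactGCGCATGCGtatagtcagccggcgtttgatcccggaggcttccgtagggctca
Mrps18a: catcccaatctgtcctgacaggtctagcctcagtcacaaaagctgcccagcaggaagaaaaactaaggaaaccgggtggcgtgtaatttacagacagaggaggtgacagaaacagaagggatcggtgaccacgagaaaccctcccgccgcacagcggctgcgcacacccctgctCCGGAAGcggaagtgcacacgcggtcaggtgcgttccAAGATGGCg
Mrps11: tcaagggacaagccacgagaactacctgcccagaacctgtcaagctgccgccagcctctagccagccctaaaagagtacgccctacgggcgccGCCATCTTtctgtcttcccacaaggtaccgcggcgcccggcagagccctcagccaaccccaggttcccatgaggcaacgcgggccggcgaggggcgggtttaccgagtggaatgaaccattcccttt

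Mitochondrial ribosome genes often start back to back with a neighbour. In 27 of the 73 promoters (37.0%) another gene began on the other strand within 1000 bases upstream, against 11.4% of all promoters. Mrps11 and Mrpl46, a small and a large subunit gene, form such a pair, with start sites 42 bases apart on chromosome 7. The 76 genes are spread over 17 chromosomes, with 11 on chromosome 11 and 8 on chromosome 17.

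The values are deposited log2 expression values, so a difference of 1 is a doubling, and all differences are expressing minus non-expressing with the moderated SE of limma. All 76 genes were read above the median probe set of the arrays (5.77), with means from 8.08 to 12.82. Brightness depends on the probes as well as on the RNA, so these levels are not ordered between genes. Correlations between arrays over all probe sets were 0.992 to 0.997. Sample titles fall into 3 prefixes: the expressing arrays share 1, non-expressing replicate 1 has its own, and non-expressing replicates 2 and 3 share the third, so no prefix holds both groups. Non-expressing replicate 1 stood apart for the genes described here, and the results are given with and without it. Cardiomyocyte markers were bright in every array (mean log2 level of 8 genes 14.09 to 14.22). Measures that moved with the groups were the 18S ribosomal RNA control (8.31 ± 0.22 in expressing and 9.88 ± 0.38 in non-expressing arrays, SD, n = 3 each), the beta-actin 3′ minus 5′ value (1.23 ± 0.05 and 1.38 ± 0.07) and the mean of 6 atrial markers (8.67 ± 0.75 and 6.54 ± 0.21). Of the atrial markers 4 of 6 were higher at an unadjusted p under 0.05. Fibroblast markers were higher in 7 of 7 genes, 3 of them at that level (means 10.88 and 10.68). The endothelial marker mean was 9.95 ± 0.01 against 9.81 ± 0.05, with 4 of 6 genes higher and 2 at that level. Both measured Schwann cell markers, of 4 listed, had groups without overlap (means 7.00 ± 0.11 and 6.54 ± 0.11), and 1 of them, Mbp, was higher at that level. Their part in the results below was not tested, and in a tissue sample fewer cells of a type and less RNA per cell cannot be told apart.

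Between the groups the mitochondrial ribosome genes differed by little. The median difference was -0.05 for the 47 Mrpl genes (interquartile range -0.11 to 0.02) and -0.07 for the 29 Mrps genes (-0.12 to 0.05), beside -0.02 over all 18193 genes. Of the Mrpl genes 32 were lower and 15 higher in the expressing arrays, and of the Mrps genes 18 were lower and 11 higher, against 56.0% lower among all genes. Among the 11963 genes at or above the median probe set, as all members are, 51.2% were lower and the median difference was -0.004. The 76 members ran from -0.31 for Mrpl57 to 0.30 for Mrpl45.

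No gene of the set passed the test. At a Benjamini-Hochberg adjusted p under 0.05 in limma, 0 of 76 were called, where 4 of all genes were (0.022%), and the lowest adjusted p of a member was 0.182. At an unadjusted p under 0.05, 2 of 76 were higher, where 5.27% of all genes were, and 9 were lower, where 7.33% of all genes were. The 9 were 5 Mrpl genes (Mrpl57, Mrpl49, Mrpl52, Mrpl54 and Mrpl22) and 4 Mrps genes (Mrps33, Mrps14, Mrps11 and Mrps10), and the 2 were Mrpl4 and Mrps23. Groups without overlap were found in 15 genes with lower expressing arrays, where the share over all genes was 10.8%, and in 2 with higher ones, where it was 8.16%. The 15 make up 19.7% of the set and the 2 make up 2.63%.

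**Figure D1:**
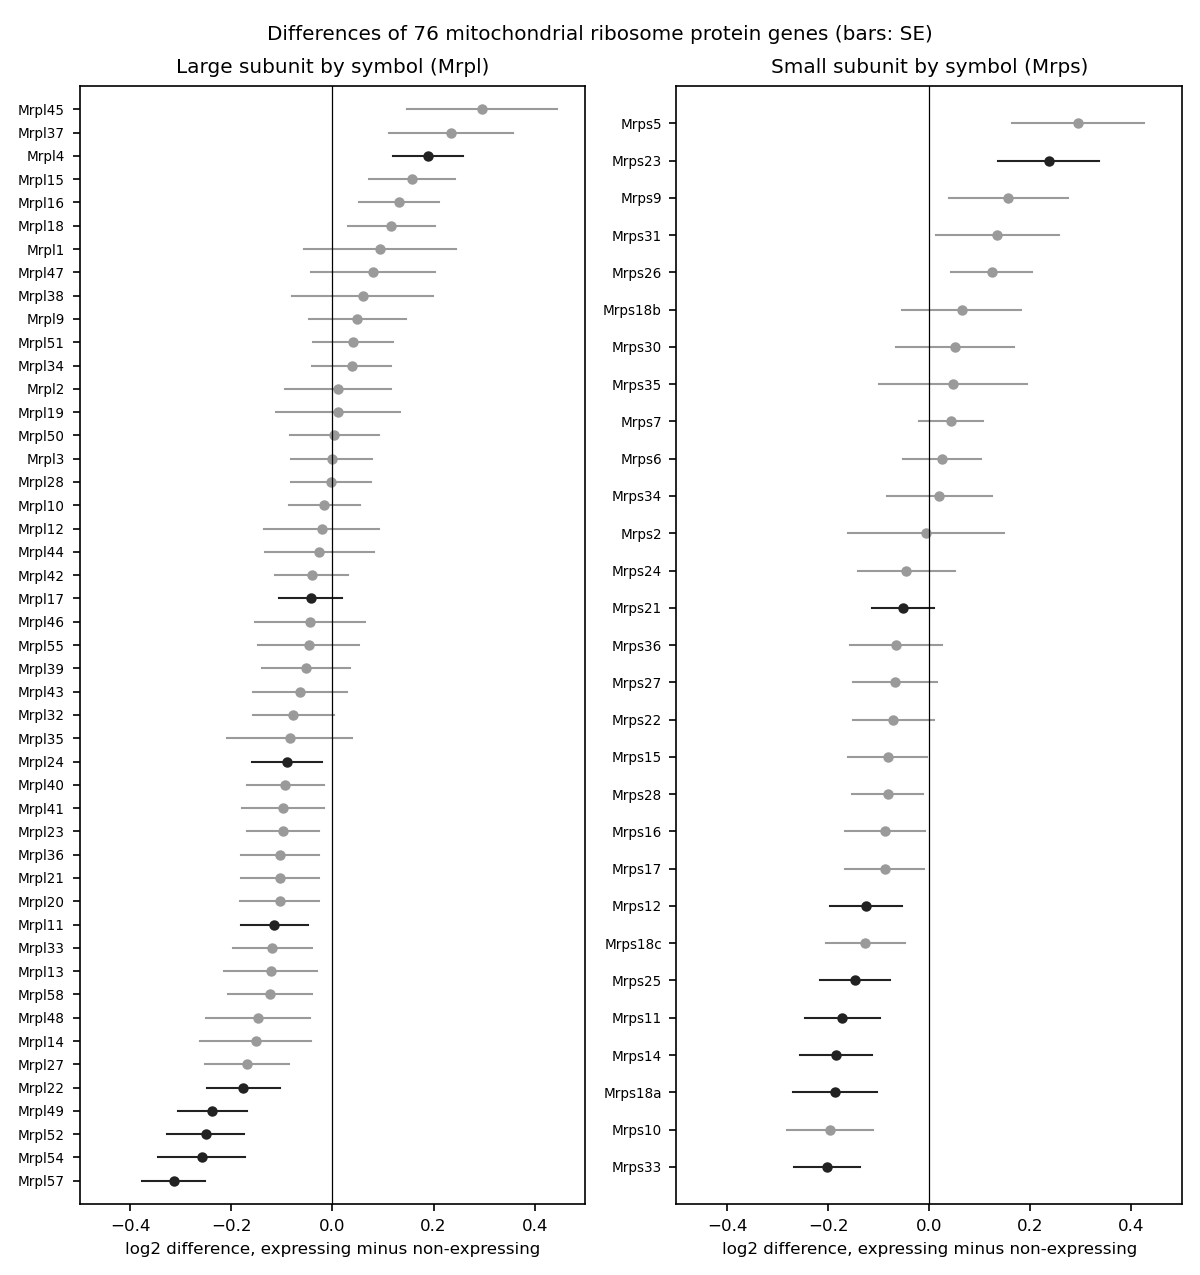
Log2 difference (expressing minus non-expressing, horizontal axis) of each of the 47 Mrpl genes (left) and 29 Mrps genes (right), with the moderated SE as a bar; black marks genes whose 3 expressing and 3 non-expressing arrays do not overlap. Most points lie between -0.2 and 0.2, and 15 of the 17 black points are on the lower side.

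Mrpl57 had the lowest p of the set and varied little within each group. It encodes a large subunit protein found only in mitochondria. Its expressing arrays were at 10.27, 10.22 and 10.27 and its non-expressing arrays at 10.57, 10.55 and 10.58, a mean of 10.25 ± 0.03 against 10.57 ± 0.01 (SD, n = 3 each). The gap between the groups was wider than the whole range within either. The difference was -0.31 (SE 0.06), 1.24-fold lower, with a limma adjusted p of 0.182. A further probe set of Mrpl57 gave -0.25, also without overlap.

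The genes next in order were also proteins without a bacterial counterpart. Mrpl49 read 9.26, 9.17 and 9.26 in the expressing and 9.44, 9.52 and 9.44 in the non-expressing arrays, a difference of -0.24 (SE 0.07, limma adjusted p 0.285). Its other probe set gave -0.01, so the 2 probe sets of Mrpl49 did not show the same size. Mrpl52 read 10.39, 10.52 and 10.36 against 10.69, 10.73 and 10.60, a difference of -0.25 (SE 0.08, adjusted p 0.294). All 3 other probe sets of Mrpl52 were lower too, with differences of -0.14, -0.13 and -0.12, each without overlap between the groups. Mrpl54 read 9.06, 8.95 and 9.02 against 9.12, 9.30 and 9.39, a difference of -0.26 (SE 0.09, adjusted p 0.314). The groups did not overlap, although non-expressing replicate 1 of Mrpl54 lay close to the expressing arrays.

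Large subunit proteins with a bacterial counterpart include those that line the exit tunnel. Mrpl4 encodes one of them and was the Mrpl gene with the lowest p on the higher side. Its expressing arrays read 11.01, 10.94 and 10.99 and its non-expressing arrays 10.87, 10.75 and 10.75, without overlap, a difference of 0.19 (SE 0.07, limma adjusted p 0.341). Mrpl22, another tunnel protein, ran the other way at 10.49, 10.46 and 10.54 against 10.75, 10.59 and 10.68. That was a difference of -0.18 (SE 0.07, adjusted p 0.379), also without overlap. Mrpl27, whose bacterial relative reaches into the catalytic centre, differed by -0.17 (SE 0.08, adjusted p 0.442), and Mrpl15 by 0.16 (SE 0.09, adjusted p 0.480). In both of these the groups overlapped.

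Mrpl45 and Mrpl37 had high values in non-expressing replicate 1 that cut across the groups. Mrpl45, which holds the ribosome to the inner membrane at the tunnel exit, read 9.26, 9.00 and 9.09 in the expressing arrays. Non-expressing replicate 1 of Mrpl45 was at 9.16 and replicates 2 and 3 at 8.64 and 8.66, so that the first lay among the expressing values and the others below them. The difference of Mrpl45 was 0.30 (SE 0.15, limma adjusted p 0.450), and 0.47 without that array (adjusted p 0.114). Mrpl37, a protein of mitochondria only, differed by 0.23 (SE 0.12, adjusted p 0.463), by 0.37 without it (adjusted p 0.135) and by 0.14 without non-expressing replicate 2 (adjusted p 0.726).

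Of the small subunit genes Mrps33 had the lowest p. It encodes a protein found only in mitochondria and has 1 probe set on the array. Its values were 11.11, 11.09 and 11.11 in the expressing and 11.33, 11.24 and 11.35 in the other arrays, a difference of -0.20 (SE 0.07, limma adjusted p 0.312). The groups of Mrps33 did not overlap. Mrps14, with a bacterial relative in the head of the small subunit, read 11.11, 11.06 and 11.08 against 11.34, 11.18 and 11.28, a difference of -0.18 (SE 0.07, adjusted p 0.356). Mrps11 read 8.67, 8.62 and 8.68 against 8.93, 8.75 and 8.80, a difference of -0.17 (SE 0.07, adjusted p 0.394). In both genes every expressing array lay below every non-expressing one. Mrpl46, which starts back to back with Mrps11, differed by -0.04 (SE 0.11) and its groups overlapped.

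Mrps10 differed by -0.20 (SE 0.09, limma adjusted p 0.396), with 1 expressing array above the lowest non-expressing one. Mrps25, of mitochondria only, differed by -0.15 (SE 0.07, adjusted p 0.428) without overlap. Mrps18a, which by structure belongs to the large subunit, read 10.88, 10.67 and 10.90 against 11.03, 10.93 and 11.04, a difference of -0.19 (SE 0.08, adjusted p 0.411). Its groups did not overlap by a narrow margin, and without expressing replicate 2, its lowest array, the difference was -0.11 (adjusted p 0.661). The other members whose symbol and structure part ways, Mrps30 and Mrps36, differed by 0.05 (SE 0.12) and -0.07 (SE 0.09), and their groups overlapped.

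Mrps23 and Mrps5 were the small subunit genes with the largest differences on the higher side. Mrps23 read 10.47, 10.15 and 10.19 in the expressing and 10.11, 10.04 and 9.95 in the non-expressing group, which did not overlap, a difference of 0.24 (SE 0.10, limma adjusted p 0.390). Both other probe sets of Mrps23 were higher as well, by 0.21 and 0.22. Without expressing replicate 1, its highest array, Mrps23 differed by 0.14 (adjusted p 0.658). Mrps5, related to the bacterial protein at the entry of the messenger RNA channel, read 8.34, 8.22 and 8.19 against 8.26, 7.80 and 7.80. As in Mrpl45, non-expressing replicate 1 lay among the expressing arrays and replicates 2 and 3 well below. The difference of Mrps5 was 0.30 (SE 0.13, adjusted p 0.407), and 0.45 without that array (adjusted p 0.0977).

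**Figure D2:**
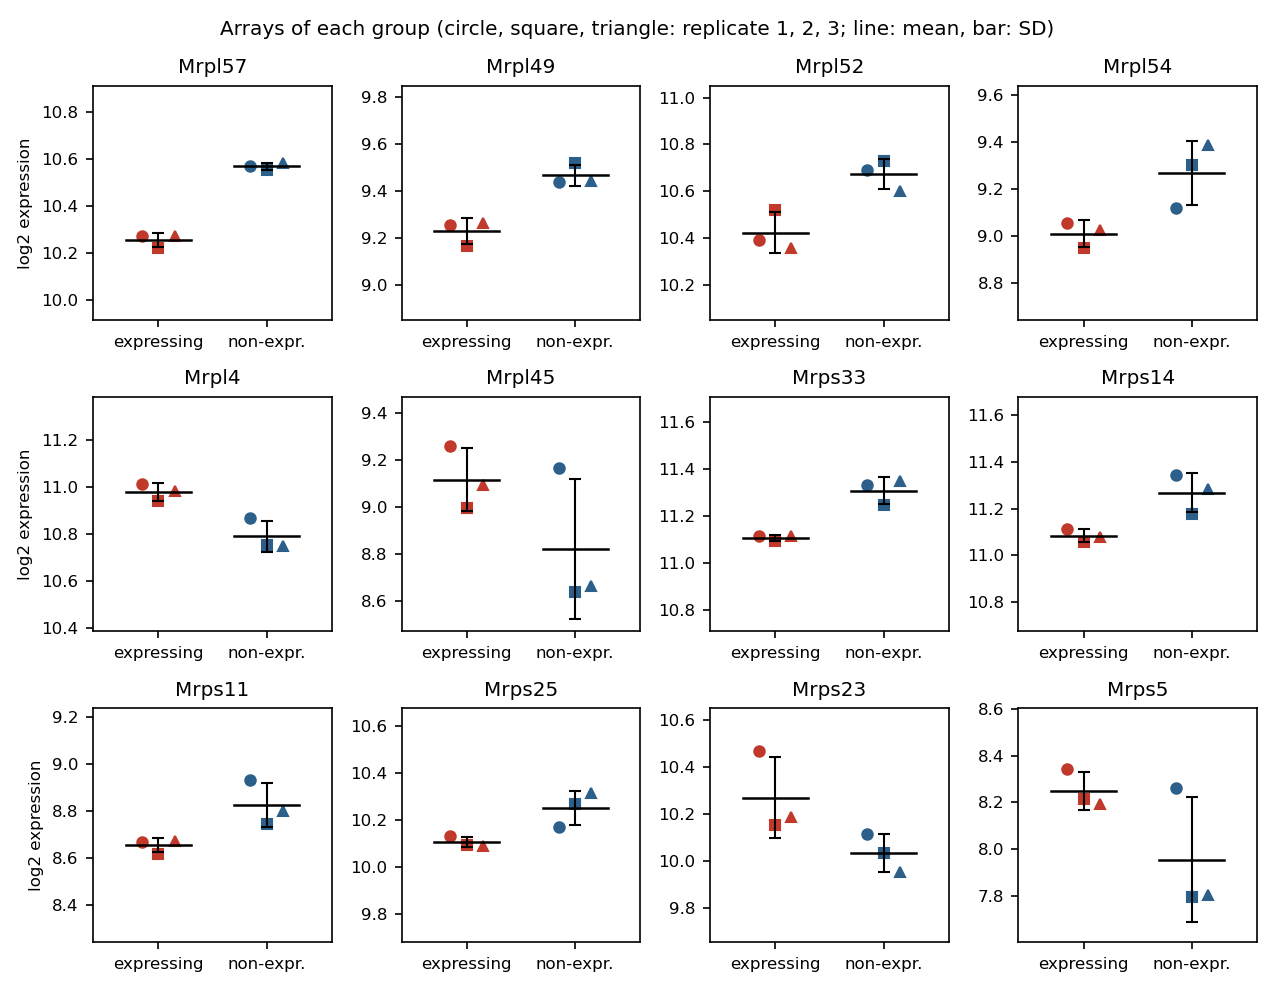
Log2 expression (vertical axis, each panel 1 log2 unit high) of 12 genes in the 3 expressing (red) and 3 non-expressing (blue) arrays, with the mean as a line and the SD as a bar. Mrpl57 and Mrps33 show tight groups apart from each other, while in Mrpl45 and Mrps5 non-expressing replicate 1 (circle) lies at the level of the expressing arrays, at 9.16 and 8.26.

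The ends of the signal range, which do not order the genes by RNA amount, are given as values. At the top, Mrpl42 had a mean of 12.82 over all arrays with a difference of -0.04 (SE 0.07), and Mrps36 was the top Mrps reading. At the bottom, Mrpl1, which encodes the protein of the mobile L1 stalk, differed by 0.09 (SE 0.15), and Mrps27 by -0.07 (SE 0.08). The groups overlapped in all 4 genes.

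Non-expressing replicate 1 differed from the other arrays of its group by more than the groups differed in most members, as it did in most of all genes. Non-expressing replicate 1 gave the highest value of all 6 arrays in 48 of the 76 genes (63.2%), where it did so in 23.7% of all genes. It lay above both other arrays of its own group in 59 genes, 38 Mrpl and 21 Mrps, or 77.6% of the set against 37.7% of all genes. Set against the mean of replicates 2 and 3, replicate 1 was higher by a median of 0.19 in the Mrpl and 0.16 in the Mrps genes, beside -0.01 over all genes. In 55 of the 76 this gap was larger in size than the difference between the groups, as it was in 11158 of all 18193 genes. A gap that rests on 1 array is noisier than a difference between group means. It tends to be the larger without any group effect, so these counts do not measure one. With 1 array under that title prefix, the gap has no replicate check, and prefix and array cannot be told apart.

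The expressing arrays lay near the level of non-expressing replicates 2 and 3. The mean of the expressing arrays was below non-expressing replicate 1 in 70 of the 76 genes, with a median gap of -0.18, and above the mean of replicates 2 and 3 in 39 and below it in 37, with a median gap of 0.02. The largest gaps between replicate 1 and the other non-expressing arrays were in Mrps2 (0.59), Mrps35 (0.53), Mrpl45 (0.52), Mrpl1 (0.51) and Mrpl38 (0.48), named after their values were seen. Mrps2 read 9.40 in replicate 1, 8.76 and 8.86 in replicates 2 and 3, and 9.02, 8.99 and 8.99 in the expressing arrays. Its group difference was -0.01, with the expressing arrays in the middle of a wide non-expressing range. A few genes ran the other way, with replicate 1 the lowest non-expressing array: in Mrpl27 the gap was -0.23 and in Mrpl54 -0.22. In these the 2 arrays that set the difference were replicates 2 and 3.

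**Figure D3:**
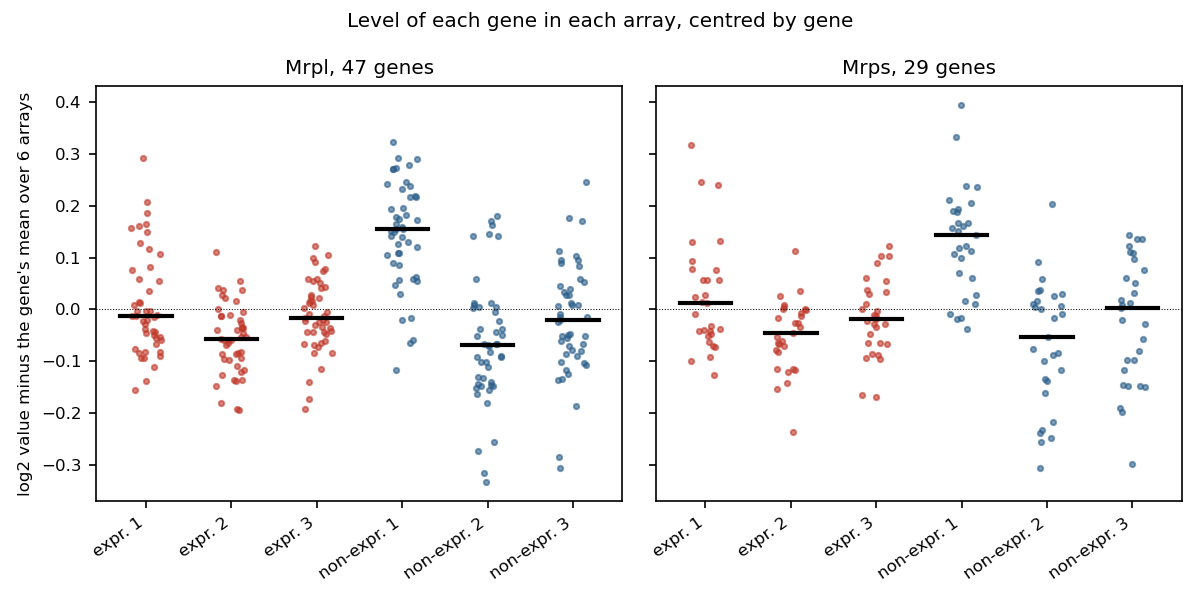
Each point is 1 gene in 1 array, as its log2 value minus that gene's mean over the 6 arrays (vertical axis), for 47 Mrpl genes (left) and 29 Mrps genes (right); black lines are medians. Non-expressing replicate 1 has medians of 0.16 and 0.14, and the other 5 arrays lie between -0.07 and 0.01.

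Leaving out non-expressing replicate 1 removed the lean of the set toward lower values. This array was singled out because it was the highest in 48 of these same 76 genes. Higher differences without it follow from that choice. Of the 47 Mrpl genes 22 were then lower, and of the 29 Mrps genes 15. The median difference became 0.02 for the Mrpl genes and -0.01 for the Mrps genes. At an unadjusted p under 0.05, 14 of 76 were then higher (18.4%, where 7.05% of all genes were) and 9 were lower (11.8%, where 8.97% of all genes were). The higher ones were 7 Mrpl and 7 Mrps genes, led by Mrps5, Mrpl45, Mrpl37 and Mrps9. The 9 lower ones were not the same genes as with all arrays. Mrpl22, Mrps14 and Mrps11 were no longer under that level, and Mrpl27, Mrpl33 and Mrps25 now were. Groups without overlap then numbered 24 on the higher side, where the share over all genes was 15.2%, and 18 on the lower side, where it was 20.1%. No member passed at an adjusted p under 0.05 in limma, and the lowest was 0.0977. Mrpl57, Mrpl54, Mrpl49 and Mrpl52 kept their direction, at -0.31, -0.33, -0.25 and -0.24.

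The other arrays moved the counts as well, and over all genes too. Over all genes the share at an unadjusted p under 0.05 in either direction was 12.6% with all arrays. It was between 9.22 and 10.8% when an array other than non-expressing replicate 1 was left out. The 4 Mrps genes that were lower at an unadjusted p under 0.05 became 0 when non-expressing replicate 3 was left out. They became 1 with expressing replicate 1 left out, and 2 with either of the other expressing arrays left out. The 5 Mrpl genes became 3 without non-expressing replicate 3 or expressing replicate 2. On the higher side the 2 genes became 0 without expressing replicate 1 or non-expressing replicate 2 or 3, and Mrpl4 was lost without expressing replicate 3.

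The complex I subunit genes shared the direction of this array pattern, and the cytosolic ribosomal protein genes did not. The 46 cytosolic ribosomal protein genes, which build the ribosome outside mitochondria, had a median difference of -0.04. An unadjusted p under 0.05 was found in 3 of them (6.52%, where 12.6% of all genes were). Non-expressing replicate 1 was above the mean of replicates 2 and 3 in 5 of the 46, with a median gap of -0.13. The 35 genes of respiratory complex I subunits, some partners of which are made by the mitochondrial ribosome, had a median difference of 0.02. At an unadjusted p under 0.05, 4 were higher and 0 lower, where 5.27% and 7.33% of all genes were. Without overlap 6 were higher (17.1%, where 8.16% of all genes were) and 0 lower, where 10.8% were. Between the groups they leaned higher, unlike the mitochondrial ribosome genes. In 31 of the 35 (88.6%) replicate 1 was above, with a median gap of 0.11. For the mitochondrial ribosome genes it was above in 66 of 76 (86.8%), where it was so in 48.5% of all genes. Values that moved with this array included the 18S control, at 10.31 in replicate 1 and 9.76 and 9.57 in replicates 2 and 3. The mean of 7 macrophage and lymphocyte markers was 8.86 in replicate 1 and 8.37 and 8.25 in the others. Cd68 had the widest gap among those 7, at 8.82 against 7.13 and 6.86. Cd3e ran the other way, at 7.47 against 7.59 and 7.54. Of the atrial markers Nppa was at 10.74 against 8.39 and 8.39, while Myl4 was at 6.57 against 7.28 and 7.01. The mean of the 8 cardiomyocyte markers was 14.22 in replicate 1 and 14.09 and 14.11 in the others. Ryr2, the calcium release channel gene, had the widest gap of them, at 12.34 against 11.44 and 11.52. Myl2 ran the other way, at 14.65 against 14.73 and 14.73. Tnni3, Actc1, Myl3 and Myh6 were nearly level across the non-expressing arrays. The mean of 4 skeletal muscle markers, below the median probe set, was 4.73 against 4.46 and 4.54. Their part was not tested.

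**Figure D4:**
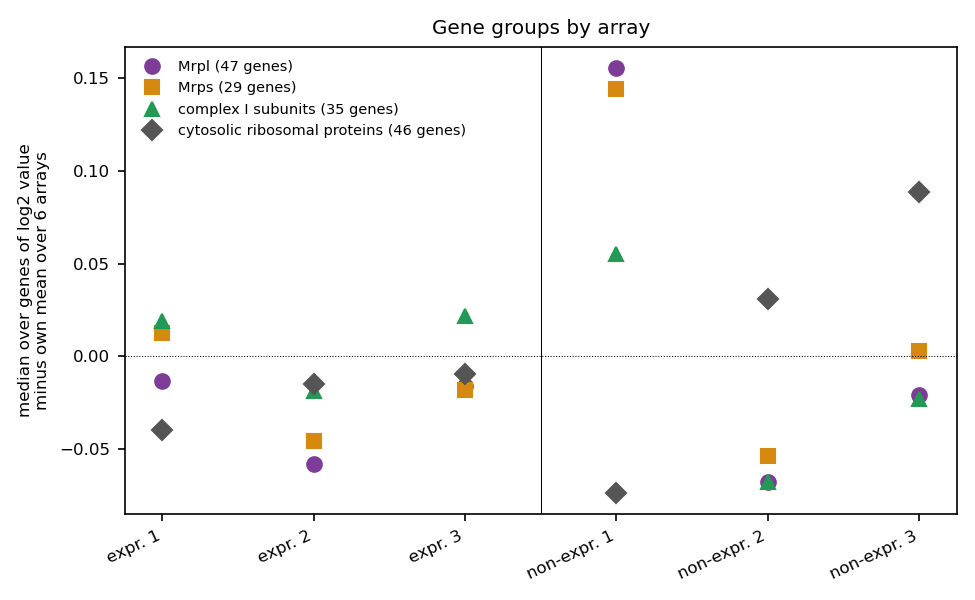
Median over the genes of a group of the log2 value minus the gene's own mean over 6 arrays (vertical axis), by array, for Mrpl, Mrps, complex I subunit and cytosolic ribosomal protein genes; the vertical line parts the 2 sample groups. The Mrpl, Mrps and complex I medians are each highest in non-expressing replicate 1 (0.16, 0.14 and 0.055). The cytosolic median is lowest there (-0.07).

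The proteins were also divided by descent. By ribosome structure 49 members belong to the large and 26 to the small subunit. Large subunit proteins with a bacterial relative (29 genes) had a median difference of -0.04 and those of mitochondria only (20 genes) -0.06. At an unadjusted p under 0.05 the first had 1 lower and 1 higher gene (3.45% each) and the second 4 lower (20%) and 0 higher, where 7.33% of all genes were lower and 5.27% higher. In the small subunit the medians were -0.08 for the 16 genes with a bacterial relative and 0.03 for the 10 without. Of these 12 and 4 were lower, where 56.0% of all genes were. At an unadjusted p under 0.05 the first had 3 lower (18.8%) and 0 higher genes. The second had 1 lower and 1 higher (10% each). Genes with the ETS letters in the promoter had a median of -0.09 (25 genes) and those without -0.05 (42 genes). For the YY1 letters the medians were -0.08 with (12 genes) and -0.05 without (55 genes), and for the NRF1 letters -0.04 with (7 genes) and -0.07 without (60 genes). With a back-to-back neighbour the median was -0.06 (25 genes), and without one also -0.06 (42 genes). These contrasts were not tested.

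Further probe sets gave a partial check. Of the 76 genes 42 had more than 1 probe set, with 80 besides the brightest. The sign was the same as that of the brightest in 53 and opposite in 27. Of the 59 that lay at or above the median probe set 45 had the same sign, and of the 21 dimmer ones 8 did. Over all 80 the median difference was 0.01, 41 higher and 39 lower, without the lean toward lower values seen over the 76 brightest. The sets are not alike, since the 80 come from only 42 genes and count some genes more often than others. No probe set of a member passed over all 45037 probe sets (lowest limma adjusted p 0.184).

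In 2 genes probe sets lay on opposite sides with an unadjusted p under 0.05 on each. Mrpl3, which encodes a core protein near the catalytic centre, had a brightest probe set with a difference of 0.00 (SE 0.08), with overlapping groups. A dimmer one, whose groups did not overlap, read 7.79, 7.70 and 7.89 against 7.65, 7.44 and 7.62, a difference of 0.22. Another, close to the median of all probe sets, was at -0.36 with its groups apart, and neither passed over all probe sets (limma adjusted p 0.385 and 0.276). Mrps14 had -0.18 in its brightest probe set and 0.23 in one near the bottom of the scale, at 3.44 to 3.91. In 3 more genes, Mrpl13, Mrpl21 and Mrpl44, named after their values were seen, a dimmer probe set was higher at that level while the brightest was lower without reaching it. The dimmer probe set differed by 0.50 against -0.10 for the brightest in Mrpl21, by 0.31 against -0.03 in Mrpl44, and by 0.30 against -0.12 in Mrpl13. In these 3 dimmer probe sets the groups did not overlap. Mrpl15, with 8 probe sets, was higher in 6 of them, with -0.01 and -0.04 in the others. RefSeq lists 6 pseudogenes of Mrpl23, Mrpl27, Mrpl48 and Mrps36, so the probes of these genes could also bind RNA of the copies.

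**Figure D5:**
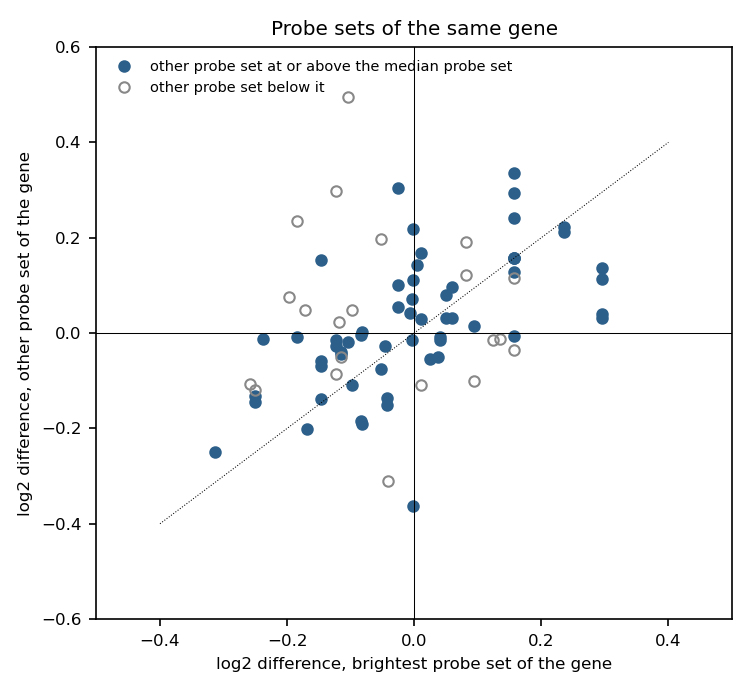
Log2 difference of each of 80 further probe sets (vertical axis) against that of the brightest probe set of the same gene (horizontal axis); filled points are probe sets at or above the median probe set, open points dimmer ones, and the dotted line marks equal values. Filled points follow the line more often, 45 of 59 with the same sign, than open points, 8 of 21.

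Other genes of mitochondrial translation also gave no call. Of 4 measured ribosome proteins without an Mrp name, 0 were under an unadjusted p of 0.05, where 12.6% of all genes were. Gadd45gip1, a protein by the tunnel exit, differed by -0.15 and Chchd1, a small subunit protein, by -0.09. Of 23 assembly factors 1 was higher and 1 lower at that level, where 5.27% of all genes were higher and 7.33% lower. Their median was 0.01. Rbfa, which matures the RNA of the small subunit, read 9.80, 9.78 and 9.77 in the expressing and 9.61, 9.62 and 9.51 in the non-expressing arrays, a difference of 0.20 (SE 0.07, limma adjusted p 0.318). Mpv17l2, needed for ribosome assembly, differed by -0.22 (SE 0.08, adjusted p 0.331). The groups did not overlap in either gene, where 8.16% of all genes were higher and 10.8% lower without overlap.

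Among 15 translation factors 10 were higher, 2 at an unadjusted p under 0.05 and none at an adjusted one, with a median of 0.05. Over all genes 44.0% were higher, 5.27% at that unadjusted level. Groups without overlap were found in 3 of the 15, all higher, where 8.16% of all genes were. Lrpprc, which steadies mitochondrial messenger RNAs, read 9.96, 9.82 and 9.89 against 9.74, 9.46 and 9.57, a difference of 0.30 (SE 0.09, limma adjusted p 0.290). Oxa1l, the insertase that puts new chains into the inner membrane, read 8.36, 8.10 and 8.16 against 8.06, 7.75 and 7.83, a difference of 0.33 (SE 0.11, adjusted p 0.312). Every expressing array lay above every non-expressing one in both, and in both replicate 1 was the highest array of the non-expressing group.

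Of 19 measured genes for charging mitochondrial tRNAs 13 were lower, 1 at an unadjusted p under 0.05, with a median of -0.06. Over all genes 56.0% were lower, 7.33% at that level. Gatc, of the complex that makes glutaminyl-tRNA in mitochondria, differed by -0.16 (SE 0.06, limma adjusted p 0.369), and Cars2, the cysteinyl-tRNA synthetase gene, by -0.15 (SE 0.07, adjusted p 0.425). Of 6 genes of mitochondrial transcription 1 was higher and 1 lower at that level, where 5.27% of all genes were higher and 7.33% lower. Tfam, which packs mitochondrial DNA and starts its transcription, read 9.26, 9.03 and 9.09 against 9.00, 8.71 and 8.81, a difference of 0.29 (SE 0.10, adjusted p 0.324). Polrmt, the RNA polymerase of mitochondria, differed by -0.17 (SE 0.07, adjusted p 0.393). Both pairs of groups were without overlap, where 8.16% of all genes were higher and 10.8% lower without overlap. None of the genes in these lists passed over all genes.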

How the data were processed

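Each array has 1 deposited log2 value for each probe set. RMA and Partek 6.6 are listed, without role or order, per the submitters' processing notes, and the labels give no settings. That the scale is log2 follows from the range (2.09 to 14.77). The arrays share nearly the same distribution, so a change common to all genes cannot be seen. The file holds 45101 probe sets, of which 64 controls were kept out of the tests. Of the remaining 45037, 34945 carry 1 gene symbol in the platform annotation, and they stand for 18193 genes. All 76 members were found in RefSeq under the same symbol.

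Groups were compared in R 4.3.3 by the moderated linear model of limma 3.58.1 (two-sided), fitted over the 18193 genes with Benjamini-Hochberg adjustment over all of them. The fit was tested on simulated data. Replicate numbers follow record order and pair nothing. Having 3 arrays a group sets the precision. The genes named are those past the adjusted threshold, the 10 Mrpl and 8 Mrps genes with the lowest p, those with the brightest and dimmest probe set of each, genes whose probe sets disagree at an unadjusted p under 0.05, Mrps18a, Mrps30 and Mrps36, and 2 genes from each translation list. The members and lists were chosen with earlier results of these data known. Alternatives were leaving out dim probe sets, cyclic loess, median centring, an intensity trend with robust prior, the title prefix as a random block (consensus correlation 0.165), other choices of probe set, a test over all probe sets, leaving out each array, and, added after seeing the data, a variance prior over all probe sets. Since no prefix holds both groups, the block cannot separate prefix from group. Promoters and their build come from RefSeq tables.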

Additional observations from a re-analysis of the deposited data

How the results depend on the processing

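No member passed at an adjusted p of 0.05 under any of the 15 alternatives, where the lowest adjusted p of a member ran from 0.0949 to 0.436, while the genes called over the whole array ran from 0 to 19. With the variance prior over all probe sets 12 genes of the whole array were called, and none was a member. No paired analysis was possible because replicate numbers are only names given in the order of the records.

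Counts at an unadjusted p under 0.05 depended on the setting. The 1 higher Mrps gene became 0 with cyclic loess or the title prefix as a random block and 2 with an intensity trend or the mean of all probe sets. The 4 lower Mrps genes became 6 with cyclic loess or the intensity trend, 5 with dim probe sets left out and 1 with the prefix block. They became 2 with median centring, the mean of all probe sets, no _x_at or _s_at probe sets, all probe sets tested, or the variance prior over all probe sets. The share of all genes at that level, in either direction, was 12.6% in the results above and 12.3% with cyclic loess. It was 13.2% with the intensity trend, 15.2% with dim probe sets left out and 8.18% with the prefix block. It was 12.4% with median centring, 12.3% with the mean of all probe sets and 12.6% without _x_at or _s_at probe sets. With all probe sets tested, or the variance prior over all probe sets, the share was 11.4%. With 1 array left out the higher Mrpl count ran from 0 to 7, the lower one from 3 to 6, the higher Mrps count from 0 to 7 and the lower one from 0 to 3. The Mrpl median ran from -0.11 to 0.022 and the Mrps median from -0.10 to -0.01. Members without overlap ran from 16 to 27 on the lower and from 2 to 24 on the higher side, where fewer arrays by themselves make overlap rarer. Over all genes these shares ran from 15.4 to 20.1% on the lower and from 11.2 to 15.2% on the higher side. The 27 (35.5%, against 16.1% of all genes) came without non-expressing replicate 2 and the 24 (31.6%, against 15.2%) without replicate 1. With the mean of all probe sets 5 were on the higher side.

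Of 359 values of the 24 named members under the alternatives 348 kept their direction and 11 reversed. Mrps14 was at 0.014 with the mean of all probe sets, and Mrpl3 at 0.00193 with median centring. The other 9 came from leaving out 1 array, where Mrpl3 ran from -0.056 to 0.032, Mrpl42 from -0.077 to 0.012, Mrpl1 from -0.025 to 0.26, Mrps36 from -0.12 to 0.023 and Mrps30 from -0.018 to 0.18. None of these 6 genes but Mrps14 was under an unadjusted p of 0.05 with all arrays. Apart from the left-out arrays, the cause was not tested.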
